A study of Mus musculus with 8 samples.

Results

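The genes described here carry glucose into the cell and through the first steps of glycolysis, down to triose phosphate. They were chosen by name as 10 of the 16432 genes listed in a bulk RNA sequencing study of sternal chondrocytes (cartilage cells isolated from the breastbone) of C57BL/6 mouse embryos at embryonic day 18.5. They are the glucose transporter Slc2a1, the hexokinases Hk1 and Hk2, the isomerase Gpi1, the phosphofructokinases Pfkl, Pfkm and Pfkp, the aldolases Aldoa and Aldoc, and the triose phosphate isomerase Tpi1. All 10 passed the filter on low values in every comparison.

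Chondrocytes of the genotype Col2a1Cre;Idh1 fl/+ (Cre-Idh1, n = 3) carry both a floxed Idh1 allele and Cre recombinase under the promoter of Col2a1, the main collagen gene of cartilage. By the study's title they express mutant Idh1, an altered form of the cytosolic isocitrate dehydrogenase. One control carries the floxed allele without Cre (Idh1 fl/+, floxed control, n = 2) and the other carries Cre without the floxed allele (Col2a1Cre, Cre control, n = 3). The sample labels write the floxed genotype as fl/+ and the study's design text writes it as fl/fl, and the labels are followed here. Nothing in the labels tells if libraries within a group stem from different litters or from pooled embryos, so a p-value measures the spread between these libraries, which may in part be technical.

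Cartilage has no blood vessels, and growth plate chondrocytes live at low oxygen and draw much of their energy from glycolysis. GLUT1, the product of Slc2a1, lets glucose into the cell, hexokinase traps it as glucose 6-phosphate, and glucose 6-phosphate isomerase turns it into the fructose form. Phosphofructokinase makes the committed step of the pathway, aldolase splits the sugar, and triose phosphate isomerase interconverts the products. Many of these genes are known targets of hypoxia-inducible factor (HIF), the transcription factor that acts at low oxygen and binds a short core motif. Mutant IDH1 enzymes are known to make 2-hydroxyglutarate, a metabolite that can act on the oxygen-sensing hydroxylases.

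The start regions of Slc2a1, Hk2, Pfkl, Pfkp and Aldoc are printed here, and each of them holds a HIF-type core motif. Those of the other members are not printed. Among these, Pfkm and Tpi1 fell against both controls, and the Tpi1 window held no such motif. The sequences are the 250 bases before the most upstream RefSeq start listed for each gene in build GRCm38.p6. Hk1 and Aldoc have 2 listed starts, Aldoa 3, Pfkm 4 and the other members 1. Sequences are written in the direction of transcription, and capitals mark ACGTG or GCGTG on either strand, with overlapping places merged. The windows lie at chr4:119108495-119108744 (+) for Slc2a1, chr6:82774455-82774704 (-) for Hk2, chr10:78009808-78010057 (-) for Pfkl, chr13:6648772-6649021 (-) for Pfkp and chr11:78322823-78323072 (+) for Aldoc.
Slc2a1: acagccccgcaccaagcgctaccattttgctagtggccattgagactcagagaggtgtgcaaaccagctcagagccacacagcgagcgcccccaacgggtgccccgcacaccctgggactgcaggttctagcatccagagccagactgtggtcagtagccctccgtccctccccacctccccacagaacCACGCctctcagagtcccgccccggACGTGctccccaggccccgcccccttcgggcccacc
Hk2: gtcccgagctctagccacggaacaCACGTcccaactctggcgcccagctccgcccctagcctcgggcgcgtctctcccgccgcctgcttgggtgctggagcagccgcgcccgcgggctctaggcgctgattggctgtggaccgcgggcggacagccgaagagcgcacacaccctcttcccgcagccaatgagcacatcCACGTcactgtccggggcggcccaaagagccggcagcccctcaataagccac
Pfkl: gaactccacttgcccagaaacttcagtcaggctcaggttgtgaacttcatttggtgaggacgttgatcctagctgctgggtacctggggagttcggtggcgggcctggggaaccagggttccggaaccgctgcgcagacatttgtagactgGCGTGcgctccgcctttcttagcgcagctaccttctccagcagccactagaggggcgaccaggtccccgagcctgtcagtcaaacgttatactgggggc
Pfkp: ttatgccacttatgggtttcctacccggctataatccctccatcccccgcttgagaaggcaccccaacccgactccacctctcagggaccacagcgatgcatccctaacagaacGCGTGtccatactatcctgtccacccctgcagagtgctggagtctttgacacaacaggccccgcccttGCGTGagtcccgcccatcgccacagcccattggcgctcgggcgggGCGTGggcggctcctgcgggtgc
Aldoc: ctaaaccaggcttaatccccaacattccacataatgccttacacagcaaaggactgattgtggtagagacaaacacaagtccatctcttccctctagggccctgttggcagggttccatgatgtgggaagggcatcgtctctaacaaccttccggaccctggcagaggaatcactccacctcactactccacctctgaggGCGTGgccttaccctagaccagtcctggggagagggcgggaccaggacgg
Pfkp held 3 such places, with first bases at -136, -68 and -23 relative to the start. Slc2a1 held 2, at -61 and -36, and Hk2 held 2, at -226 and -52. Pfkl, Pfkm and Aldoc held 1 each, at -99, -136 and -50, and the windows of Hk1, Gpi1, Aldoa and Tpi1 held none. At least 1 place was thus found for 6 of the 10 genes, against 38.6% of the 27025 mouse genes with such a window. At least 2 places occur in 13.6% of those genes and at least 3 in 4.8%. A match is a description of the letters and not a bound site, and other starts of these genes were not searched.

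The libraries held 31860422 to 44988540 reads assigned to genes, and Col2a1 alone took 15.9 to 21.3% of them. Values are the authors' normalized counts, that is reads divided by a factor for the depth of each library. The Cre-Idh1 libraries had 3549, 3948 and 3465 normalized counts of Idh1, the floxed control 2263 and 2452, and the Cre control 3624, 3647 and 3991, a count that does not separate the mutant from the normal transcript. By Xist and Y-linked genes, 3 libraries were female (replicate 1 of Cre-Idh1, replicates 1 and 3 of the Cre control) and the other 5 male. Cre control replicate 2 stood apart for the genes described here. It was the highest of all 8 libraries for 8 of the 10, as it was for 6.29% of the 15505 genes considered, and the highest of the 5 control libraries for 9 of the 10, as for 17.9% of those genes. It is also the only male library of its group, and sex and library cannot be told apart there. The mean of the 10 genes, on log2(value + 1) and relative to the mean of all libraries, was -0.39, -0.24 and -0.22 in Cre-Idh1, 0.19 and 0.21 in the floxed control, and -0.12, 0.54 and 0.04 in the Cre control.

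**Figure D1:**
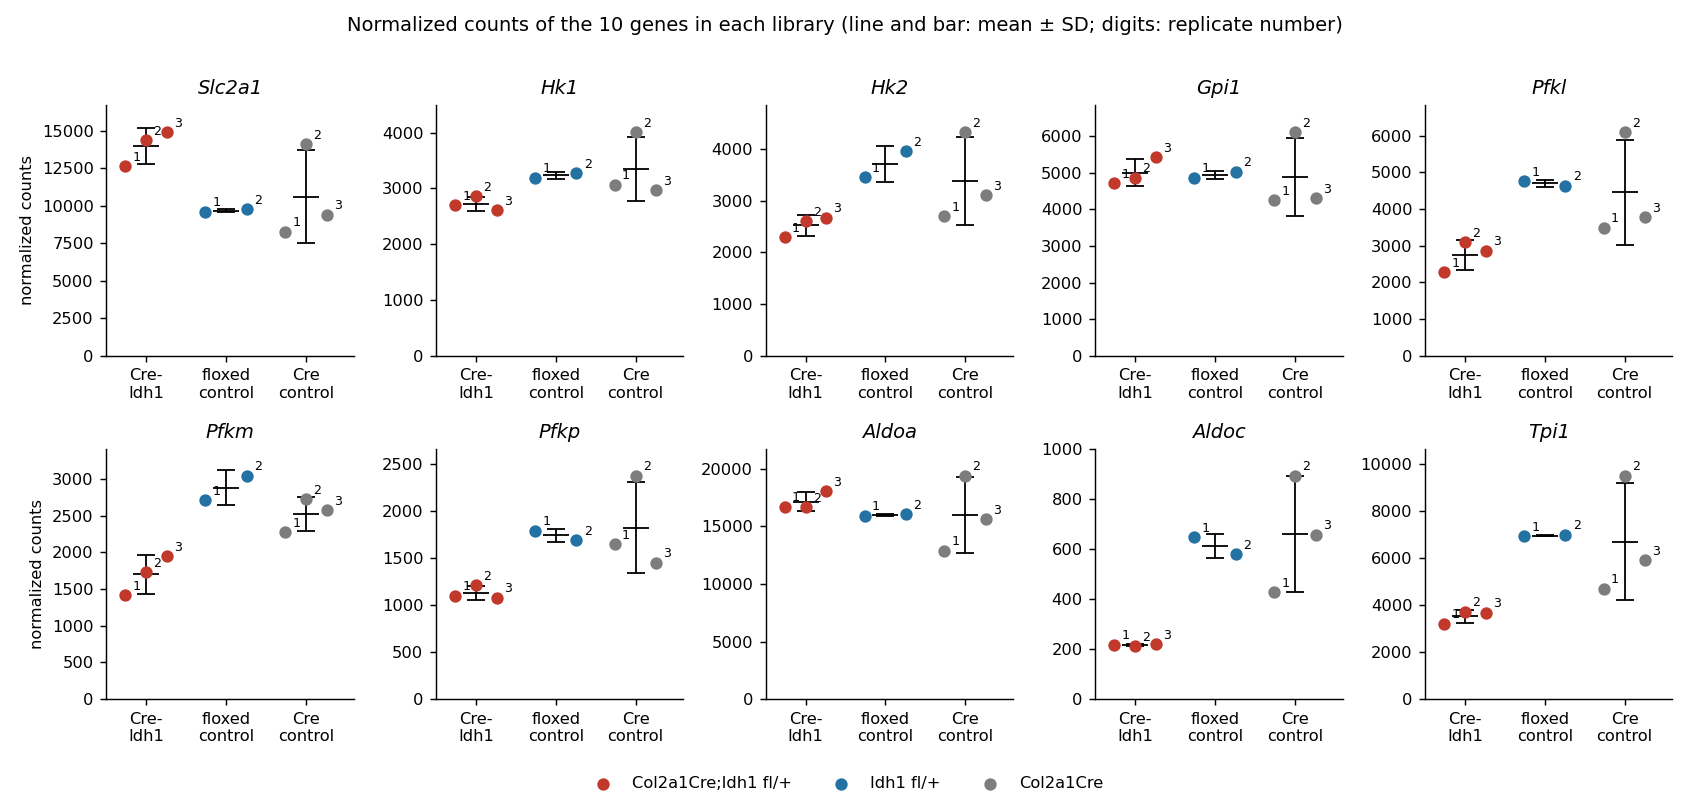
Normalized counts (vertical axes, each from 0) of the 10 genes, with a point for each library, a line at the group mean and a bar of 1 SD; digits give the replicate. Cre-Idh1 libraries lie below all 5 controls for Hk1, Hk2, Pfkl, Pfkm, Pfkp, Aldoc and Tpi1, and Cre control replicate 2 is the top control for all genes but Pfkm.

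The 10 genes did not move together. In Cre-Idh1 chondrocytes the steps of phosphofructokinase, triose phosphate isomerase and the minor aldolase Aldoc were lower than in the controls, Gpi1 and Aldoa were close to the control levels, and the transporter Slc2a1 was higher than in the floxed control. Against the Cre control, 4 of the 10 genes fell (Pfkm, Pfkp, Aldoc and Tpi1) and 0 rose at an adjusted p under 0.05 in limma on log2(value + 1), where 9.39% of the 14851 genes tested fell, 9.8% rose and 19.2% changed in either direction. At an unadjusted p under 0.05 in limma, 7 members were lower and 1 was higher, beside 5074 of the 14851 genes in either direction. Against the floxed control 4831 of 15212 genes had such a p. Against the floxed control, 6 fell (Hk2, Pfkl, Pfkm, Pfkp, Aldoc and Tpi1) and Slc2a1 rose, where 6.96% of 15212 genes fell, 7.47% rose and 14.4% changed in either direction. The median log2 fold change of the 10 genes was -0.49 against the Cre control and -0.59 against the floxed control, beside -0.01 and 0.002 over all genes tested. Without Cre control replicate 2 the median against the Cre control was -0.31. The comparisons share the Cre-Idh1 libraries and are not independent of each other.

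Of the 10 genes, 7 had all Cre-Idh1 libraries below all 5 control libraries (Hk1, Hk2, Pfkl, Pfkm, Pfkp, Aldoc and Tpi1), as did 18.0% of all genes considered. For 0 of the 10 were all Cre-Idh1 libraries above all controls, beside 17.4% of all genes. Against the Cre control alone the same 7 were lower and 0 higher without overlap, where 20.9% and 20.1% of all genes were. Against the floxed control alone 7 were lower and 2 higher without overlap, where 26.7% and 26.6% of all genes were. In bulk RNA of this kind, fewer cells of a type and less RNA per cell cannot be told apart.

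**Figure D2:**
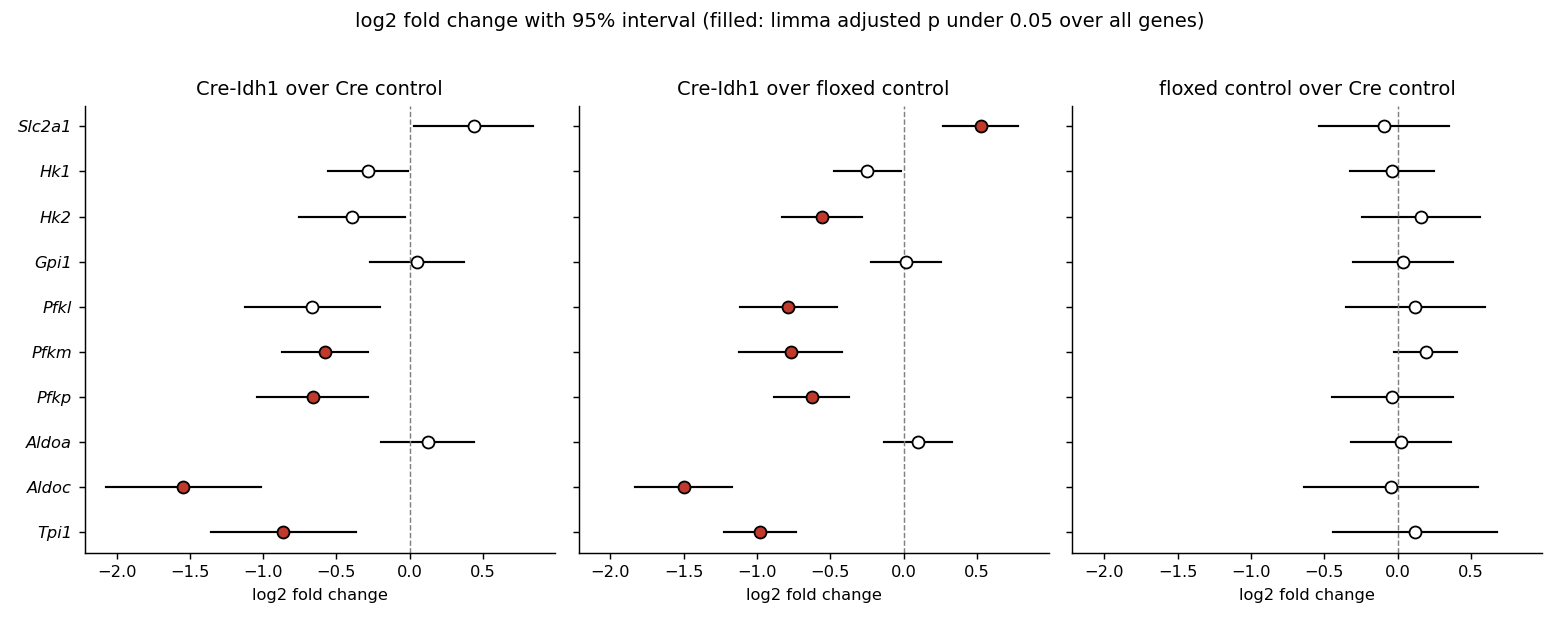
Log2 fold change (horizontal axis, on log2(value + 1)) of each gene with its 95% interval from limma, for Cre-Idh1 over the Cre control, Cre-Idh1 over the floxed control and the floxed control over the Cre control. Filled points passed an adjusted p of 0.05 over all genes; Aldoc lies farthest from 0 in both comparisons of Cre-Idh1 and no point is filled between the controls.

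Glucose enters chondrocytes mainly through GLUT1. Slc2a1 had 12624, 14390.1 and 14916 normalized counts in Cre-Idh1 libraries, against 9603 and 9755 in the floxed control and 8265, 14112 and 9392 in the Cre control. All 3 Cre-Idh1 libraries were above the floxed libraries, while Cre control replicate 2 lay within their range. Slc2a1 rose against the floxed control, with a log2 fold change of 0.53 ± 0.11 (SE, limma adjusted p = 0.021). Against the Cre control the log2 fold change was 0.44 ± 0.18 and did not pass (limma adjusted p = 0.124). Without Cre control replicate 2 it was 0.66 and passed (limma adjusted p = 0.0161), whereas without Cre control replicate 1 it was 0.28 (0.345) and with embryo sex in the fit 0.29 (0.181). The call against the floxed control was lost when all 8 libraries were fitted together (adjusted p = 0.0696) and without Cre-Idh1 replicate 2 (0.0649), floxed replicate 1 (0.151) or floxed replicate 2 (0.186).

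Hexokinase commits glucose to the cell, and chondrocytes held RNA of both the housekeeping form Hk1 and the inducible form Hk2. Hk1 had 2702, 2859 and 2611 normalized counts in Cre-Idh1 libraries, against 3189.8 and 3276 in the floxed control and 3067, 4013 and 2968 in the Cre control. The Cre-Idh1 libraries were the 3 lowest, but the log2 fold change of -0.25 ± 0.10 against the floxed control (limma adjusted p = 0.129) and of -0.29 ± 0.12 against the Cre control (0.131) did not pass. Hk2 had 2296, 2602 and 2675 normalized counts in Cre-Idh1 libraries, against 3458 and 3961 in the floxed control and 2706, 4331 and 3104 in the Cre control. Its highest Cre-Idh1 library came close to Cre control replicate 1, while both floxed libraries lay well above. Hk2 fell against the floxed control, with a log2 fold change of -0.555 ± 0.12 (limma adjusted p = 0.0218), and stood at -0.40 ± 0.16 against the Cre control (limma adjusted p = 0.118). The value against the Cre control was -0.20 without Cre control replicate 2 (adjusted p = 0.327), and it passed with embryo sex in the fit (-0.53, 0.0267) and in the authors' deposited table (-0.42, 0.0458). The call against the floxed control was lost in limma without Cre-Idh1 replicate 1 (-0.49, adjusted p = 0.0622) or 2 (0.054). Embryo sex in the fit gave the same value (-0.49, 0.0647) as leaving out Cre-Idh1 replicate 1, the only female library there. Without floxed replicate 1 or 2 the log2 fold change was -0.65 or -0.46, and the call was lost in both runs.

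Hk2 made up 45.9, 47.6 and 50.6% of the normalized counts of Hk1 and Hk2 together in Cre-Idh1 libraries, 52.0 and 54.7% in the floxed control, and 46.9, 51.9 and 51.1% in the Cre control. The shares of Cre-Idh1 and Cre control libraries overlapped. Gpi1, which turns glucose 6-phosphate into fructose 6-phosphate, had 4719, 4866 and 5419 normalized counts in Cre-Idh1 libraries, 4861 and 5025 in the floxed control, and 4255.5, 6115 and 4304 in the Cre control. These ranges overlapped, and the log2 fold change was 0.01 ± 0.10 against the floxed control (limma adjusted p = 0.937) and 0.05 ± 0.14 against the Cre control (0.83). The 95% interval of Gpi1 was -0.23 to 0.25 against the floxed control and -0.27 to 0.37 against the Cre control.

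Phosphofructokinase is built from liver (Pfkl), muscle (Pfkm) and platelet (Pfkp) type subunits, and RNA of each was lower in Cre-Idh1 libraries. Pfkl had 2278, 3093 and 2863 normalized counts in Cre-Idh1 libraries, against 4761 and 4633 in the floxed control and 3492, 6100.2 and 3770.1 in the Cre control. No Cre-Idh1 library reached any control library. Pfkl fell against the floxed control, at a log2 fold change of -0.79 ± 0.14 (limma adjusted p = 0.0135), and lay just outside the threshold against the Cre control, at -0.66 ± 0.20 (limma adjusted p = 0.0514). The second comparison passed with edgeR's quasi-likelihood test (adjusted p = 0.0451) and with DESeq2 (0.00598), and in the authors' deposited table (0.00291). In limma it was -0.41 without Cre control replicate 2 (adjusted p = 0.115) and -0.54 without Cre-Idh1 replicate 1 (0.12).

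Pfkm had 1417, 1734 and 1950.2 normalized counts in Cre-Idh1 libraries, against 2711 and 3049 in the floxed control and 2273, 2726 and 2579 in the Cre control. Cre control replicate 2 stood less apart for this gene than for the other subunits. Pfkm fell in both comparisons, with a log2 fold change of -0.77 ± 0.15 against the floxed control (limma adjusted p = 0.0173) and of -0.58 ± 0.13 against the Cre control (0.016). Pfkp had 1098, 1206 and 1074 normalized counts in Cre-Idh1 libraries, against 1787 and 1688 in the floxed control and 1641, 2373 and 1449 in the Cre control. Again the groups did not overlap. Pfkp fell with a log2 fold change of -0.63 ± 0.11 against the floxed control (limma adjusted p = 0.0122) and of -0.66 ± 0.17 against the Cre control (0.0259).

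Against the Cre control, Pfkm no longer passed without Cre control replicate 2 (limma adjusted p = 0.0701) or 3 (0.0737). Pfkp no longer passed without Cre-Idh1 replicate 1 (0.0535) or Cre control replicate 1 (0.0622) or 2 (0.0547). Against the floxed control, leaving out floxed replicate 1 or 2 gave adjusted p-values of 0.102 and 0.134 for Pfkl, 0.0837 and 0.196 for Pfkm, and 0.126 and 0.131 for Pfkp. The lone floxed library is there assumed to vary like the other group.

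Summed over the subunits, phosphofructokinase RNA came to 4793, 6032 and 5887 normalized counts in Cre-Idh1 libraries, against 9259 and 9370.4 in the floxed control and 7406, 11199 and 7798 in the Cre control. The make-up of the sum overlapped between groups. Pfkl gave 47.1 to 54.5% of it over the 8 libraries, Pfkm 24.3 to 33.1% and Pfkp 18.0 to 22.9%. These sums and shares, and the ratios further on, were chosen after the values were seen and are given without a test.

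Aldolase splits fructose 1,6-bisphosphate, and of the 10 genes its isoenzyme Aldoc had the largest log2 fold change in both comparisons of Cre-Idh1. Aldoa, the main form in most tissues, had 16712, 16669 and 18067 normalized counts in Cre-Idh1 libraries, 15942 and 16061 in the floxed control, and 12899.6, 19416 and 15619.6 in the Cre control. The Cre-Idh1 libraries lay just above the floxed libraries and within the range of the Cre control. The log2 fold change of Aldoa was 0.10 ± 0.10 against the floxed control (limma adjusted p = 0.529) and 0.12 ± 0.14 against the Cre control (0.581). Aldoc, the form best known from brain, had 218, 211 and 219 normalized counts in Cre-Idh1 libraries, against 647 and 580.2 in the floxed control and 428, 895 and 658 in the Cre control. Every control library held more Aldoc than any Cre-Idh1 library, and the Cre-Idh1 libraries lay close together. Aldoc fell to a mean of 216 ± 4.44 normalized counts (SD, n = 3) in Cre-Idh1, against 614 ± 47.4 in the floxed control (n = 2) and 660.3 ± 233 in the Cre control (n = 3). Its log2 fold change was -1.50 ± 0.14 against the floxed control (limma adjusted p = 0.00195) and -1.54 ± 0.23 against the Cre control (0.00293). Aldoc passed under all 15 alternatives run against the floxed control (highest adjusted p = 0.0352) and all 16 run against the Cre control (highest 0.0199).

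As a share of the normalized counts of both aldolases, Aldoc came to 1.288, 1.249 and 1.197% in Cre-Idh1 libraries, against 3.90 and 3.49% in the floxed control and 3.21, 4.40 and 4.04% in the Cre control. The share in each Cre-Idh1 library was thus below that in every control. Aldoc was a small part of aldolase RNA in all groups. Per kilobase of annotated exon, Aldoa averaged 5891 normalized counts and Aldoc 66.2 in Cre-Idh1 libraries. Aldoa was the highest of the 10 genes per kilobase in each group, whether the length was that of all annotated exons or of a typical coding transcript.

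Tpi1, the isomerase that interconverts the products of aldolase, had 3210.0, 3719 and 3674 normalized counts in Cre-Idh1 libraries, against 6942 and 6998 in the floxed control and 4702, 9526 and 5908 in the Cre control. The groups did not overlap, and the Cre control spread widely, with replicate 2 at 2.03 times replicate 1. Tpi1 fell in both comparisons, with a log2 fold change of -0.98 ± 0.11 against the floxed control (limma adjusted p = 0.00269) and of -0.86 ± 0.22 against the Cre control (0.026). Without Cre control replicate 2 the second was -0.58 and passed (0.0341). It missed the threshold without Cre-Idh1 replicate 1 (0.0568) or 2 (0.0524) or Cre control replicate 3 (0.0712), and the first without floxed replicate 2 (0.0544). Aldoa and Tpi1 have near-identical processed copies in the mouse genome, and the sources used here do not give how reads that map to several places were counted.

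Slc2a1 and Tpi1 stand at the ends of this stretch of the pathway. The ratio of their normalized counts was 3.93, 3.87 and 4.06 in Cre-Idh1 libraries, against 1.38 and 1.39 in the floxed control and 1.76, 1.48 and 1.59 in the Cre control. The 5 controls kept a narrow range of ratios although their levels differed, replicate 2 of the Cre control included. The ratio of Tpi1 to Gpi1 was 0.680, 0.764 and 0.678 in Cre-Idh1 libraries, against 1.43 and 1.39 in the floxed control and 1.11, 1.56 and 1.37 in the Cre control. Both ratios separated the Cre-Idh1 libraries from every control, and neither depends on the scaling of a library. Tpi1 is part of both ratios and alone lay below every control in the Cre-Idh1 libraries, so the ratios are not separate results.

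**Figure D3:**
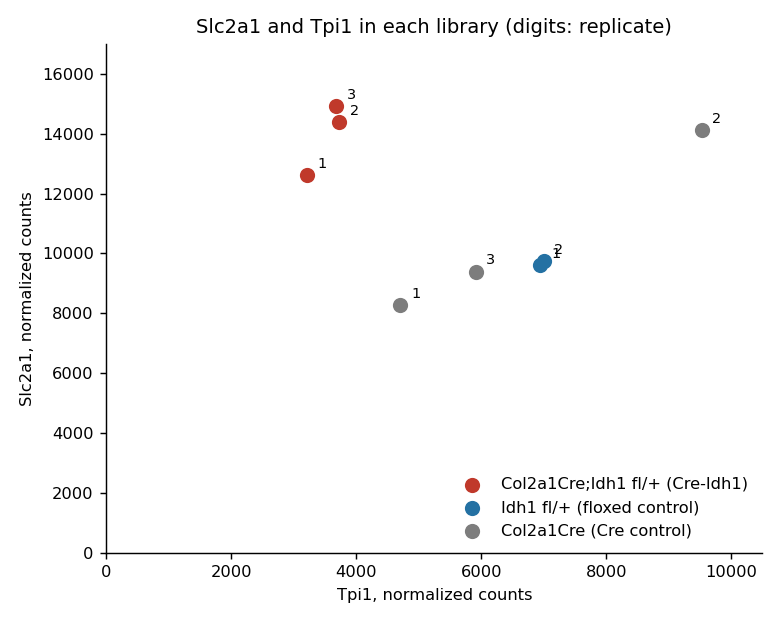
Normalized counts of Slc2a1 (vertical) against Tpi1 (horizontal) in each of the 8 libraries, with digits for replicates. The 3 Cre-Idh1 libraries lie together at high Slc2a1 and low Tpi1, with ratios of 3.87 to 4.06, while the controls run along a line of 1.38 to 1.76.

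Between the controls no difference among these genes was found. In the floxed control against the Cre control, 0 of 10 genes passed in limma, edgeR, DESeq2 or the authors' deposited table. Of the 10, 0 had an unadjusted p under 0.05 in limma, beside 1133 of the 14870 genes tested. In the same comparison 2 of 14870 genes (0.0134%) passed in limma, both lower in the floxed control, and 36 (0.242%) in the authors' deposited table. Log2 fold changes of the 10 ran between -0.09 (Slc2a1) and 0.19 (Pfkm), with a median of 0.03 beside 0.01 over all genes tested. All 10 overlapped between the groups, while 24.8% of all genes did not, but the overlap rests on a wide Cre control. Of the 5 controls, Cre control replicate 1 was the lowest for 8 of the 10 (28.2% of all genes considered). Cre control replicate 2 was the highest for 9 (17.9%). The intervals are wide: the 95% interval was -0.64 to 0.55 for Aldoc, -0.44 to 0.68 for Tpi1 and -0.54 to 0.35 for Slc2a1. With embryo sex in the fit, which sets the floxed libraries against Cre control replicate 2 alone, the median was -0.34.

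The genes also differed in how they went together over the 8 libraries. Hk1, Hk2, Pfkl, Pfkm, Pfkp, Aldoc and Tpi1 had pairwise Pearson r of 0.70 to 0.98 on log2(value + 1), highest between Pfkl and Tpi1. Slc2a1 correlated with Aldoa (0.84) and Gpi1 (0.71), and Aldoa with Gpi1 (0.87). Slc2a1 against the 7 that were lower gave -0.12 to -0.50. The libraries fall into groups and share the position of Cre control replicate 2, so these values describe the libraries and carry no test. Of 11176 genes with a mean of at least 100 normalized counts, those most like the mean of the 10 genes over the 8 libraries were Pgm2 (r = 0.99), Apln (0.99), Higd1a (0.99), Ndufa4l2 (0.98) and Car9 (0.98). Those most like Aldoc were Rgag4 (0.99), Tm7sf3 (0.99), Fscn1 (0.99), Ccdc115 (0.98) and Klf14 (0.98).

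**Figure D4:**
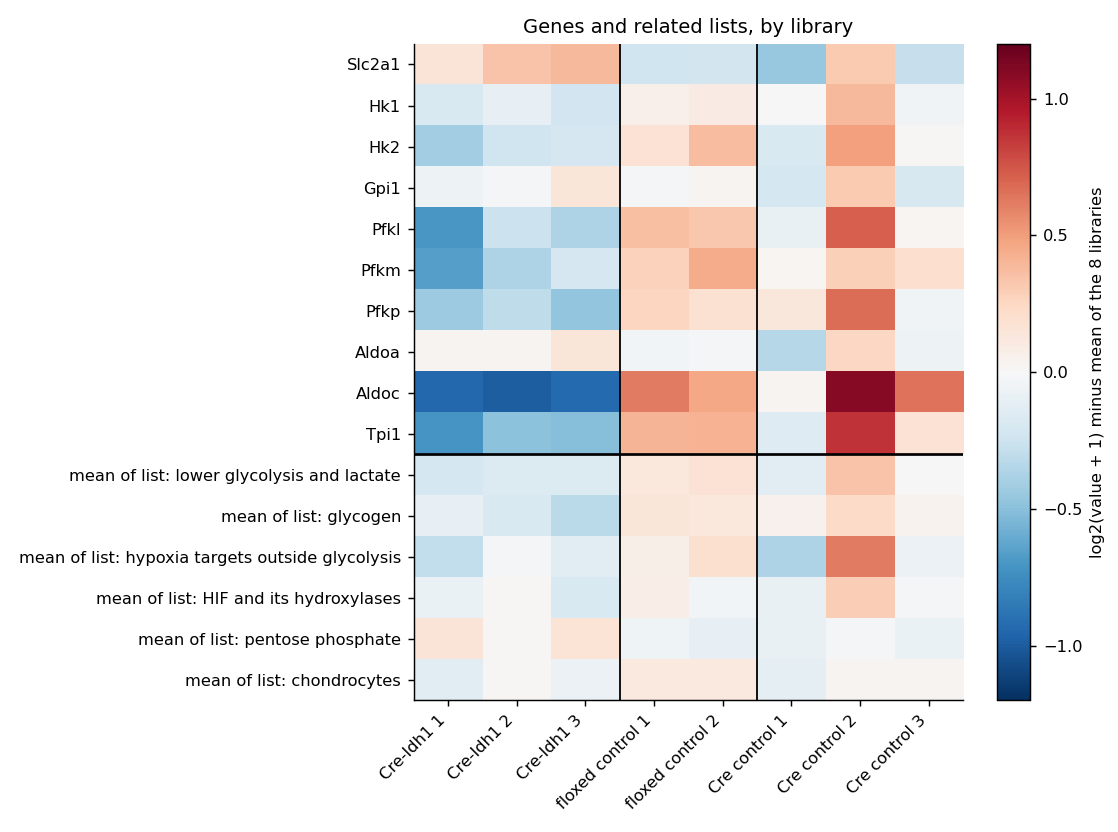
Colour gives log2(value + 1) of each gene, or the mean of a list of related genes, minus its mean over the 8 libraries (columns). Aldoc, Tpi1 and the Pfk genes are blue in all Cre-Idh1 libraries, Slc2a1 is red there, and Cre control replicate 2 is red for all 10 genes and for the hypoxia targets.

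Other transporters and enzymes of the same steps were mostly at low levels. Of 15 such genes, 2 of 11 tested rose and 2 fell against the Cre control, and 1 of 12 rose and 2 fell against the floxed control. Beside the counts of this and the following lists, 9.8% of all genes tested rose and 9.39% fell against the Cre control. Against the floxed control these shares were 7.47% and 6.96%. Slc2a4, the insulin-responsive transporter, had 274, 327 and 315 normalized counts in Cre-Idh1 libraries, 501 and 631 in the floxed control, and 451, 402 and 484 in the Cre control. It fell in both comparisons, with a log2 fold change of -0.88 (limma adjusted p = 0.0154) against the floxed control and -0.54 (0.0219) against the Cre control. Slc2a12 fell against the Cre control (-1.74, limma adjusted p = 0.0156) at 9.56 to 24.8 normalized counts in Cre-Idh1 libraries and 39.3 to 60.0 in the Cre control. Slc2a13, a carrier of inositol, rose against the Cre control (0.62, adjusted p = 0.033), as did Adpgk, which phosphorylates glucose with ADP (0.33, 0.0435). Slc2a6 rose against the floxed control (1.11, adjusted p = 0.0309).

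The neuronal-type transporter Slc2a3 did not pass, with 1044, 492 and 397 normalized counts in Cre-Idh1 libraries, 811 and 802 in the floxed control, and 510.5, 1085 and 629 in the Cre control. Hk3, the hexokinase of blood cells, did not pass either, and Cre-Idh1 replicate 1 held 391.8 normalized counts of it where the other 7 libraries held 77.6 to 135. Of 10 genes tested that control phosphofructokinase or run the reverse pathway, 0 passed in limma against either control, with 2 at an unadjusted p under 0.05 in each comparison. Pfkfb3, which makes the activator of phosphofructokinase, had 1269, 2079.7 and 1510.5 normalized counts in Cre-Idh1 libraries, 1984 and 2639 in the floxed control, and 1420.3, 2853 and 1863 in the Cre control.

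In the later steps of glycolysis and lactate handling, 3 of 13 genes tested fell and 1 rose against each control. The lactate exporter Slc16a3 fell, with a log2 fold change of -1.62 (limma adjusted p = 0.00187) against the floxed control and -1.33 (0.0241) against the Cre control. The lactate dehydrogenase subunit Ldhb had -1.12 (0.00722) and -0.88 (0.00508) in the same comparisons. Bpgm, the bisphosphoglycerate mutase, also fell, at -0.76 (0.0253) and -0.70 (0.00927), and the enolase Eno2 rose, at 0.92 (0.0147) and 0.45 (0.0477). Of 9 glycogen genes, 5 fell against the floxed control and 3 against the Cre control, among them the liver-type phosphorylase Pygl (-1.47, adjusted p = 0.0221, and -1.31, 0.0118) and the synthase Gys1 (-0.75, 0.0092, and -0.59, 0.0278). Of 7 pentose phosphate genes, 1 rose against the floxed control and 2 against the Cre control, with Pgd, the 6-phosphogluconate dehydrogenase, at 0.53 (0.0332) and 0.43 (0.0249). Of 8 genes for hexosamine and UDP sugars and 5 for glycerol phosphate and polyols, 0 passed in limma, with 3 and 1 at an unadjusted p under 0.05 against the floxed control and 5 and 1 against the Cre control.

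Known targets of HIF outside glycolysis went in both directions. Of 16 tested, 4 fell and 2 rose against the floxed control, where 6.96% and 7.47% of all genes did. Against the Cre control 2 fell and 2 rose, where 9.39% and 9.8% of all genes did. Carbonic anhydrase 9 (Car9) fell, with a log2 fold change of -2.21 (limma adjusted p = 0.0112) against the floxed control and -1.90 (0.0411) against the Cre control, whereas Ndrg1 rose, at 1.55 (0.001) and 1.37 (0.00819). Their median was -0.20 and -0.05 in these comparisons, nearer 0 than the median of the 10 genes. Cre control replicate 2 was high for these targets too, with a list mean of 0.62 above the mean of the libraries on log2(value + 1), where the other 7 libraries lay between -0.375 and 0.19. Of 8 genes for HIF subunits and hydroxylases, Epas1, which encodes a HIF alpha subunit, rose in both comparisons (1.21, adjusted p = 0.0253, and 0.53, 0.0101), and Egln3 (-0.90, 0.0423) and Egln1 (-0.61, 0.0197), which encode oxygen-sensing hydroxylases, fell against the floxed control. Of 6 genes for glucose sensing and its control, only Myc passed, at 1.17 (0.00208) and 1.07 (0.000299). No gene of these lists passed between the floxed and the Cre control in limma. Epas1 stood at -0.68 and Eno2 at -0.47 in that comparison, each the lowest of its list. In each of these 2 lists 1 gene was lower and 0 higher at an unadjusted p under 0.05 in limma.

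The labelled chondrocytes held high levels of their defining markers, and markers of some other cells differed between the groups. Summed over 8 chondrocyte markers, Cre-Idh1 libraries held 7479920 to 9848094 normalized counts, the floxed control 8571609 to 9688789 and the Cre control 7116239 to 8994185. Col2a1 makes up most of these sums. Of the 8, 1 fell and 0 rose against the Cre control, and 0 passed against the floxed control. Without overlap, 3 were lower and 0 higher than in the floxed control, and 1 was lower and 1 higher than in the Cre control. Their median log2 fold change was -0.12 against the floxed control and -0.04 against the Cre control. Over 7 macrophage markers the sums were 1731 to 2871 in Cre-Idh1, 1060.5 to 1149 in the floxed control and 1062 to 1646.5 in the Cre control, and 5 of 7 rose against the floxed control and 4 of 7 against the Cre control. Over 6 Schwann and neural markers they were 677 to 1352 in Cre-Idh1, 358.5 to 499.9 in the floxed control and 394 to 478 in the Cre control, and 0 of 6 tested rose against the floxed control and 1 of 5 against the Cre control. At an unadjusted p under 0.05 in limma, 3 and 2 of these were higher and 0 lower, with median log2 fold changes of 0.97 and 0.55. Over 7 skeletal muscle markers the sums were 225.5 to 343 in Cre-Idh1, 97.3 to 538 in the floxed control and 89.0 to 119 in the Cre control, with Myh8 and Ckm at 0 in some libraries. Over 5 markers of perichondrium and fibroblasts they were 28010.5 to 34547 in Cre-Idh1, 40509 to 45641 in the floxed control and 34261 to 40552 in the Cre control, and 2 of 5 fell against each control. The 4 hypertrophic chondrocyte markers summed to 17344 to 32986 in Cre-Idh1, 40812 to 67596 in the floxed control and 35892 to 41667 in the Cre control, and Col10a1 makes up most of these sums. Of the 4, Col10a1 fell against each control, while the list's median log2 fold change was -0.12 against the floxed control and 0.07 against the Cre control, with Ibsp at 0.80 and 1.70 without passing. The 4 endothelial markers summed to 194 to 634 in Cre-Idh1, 159 to 230.4 in the floxed control and 139.7 to 212 in the Cre control. Their median log2 fold change was 0.91 against the floxed control and 1.01 against the Cre control, and 0 of 4 passed in limma, with 1 and 2 at an unadjusted p under 0.05. Of 4 osteoblast markers 1, Sp7, fell against each control, with sums of 18410.2 to 58001 in Cre-Idh1, 27110.5 to 32261 in the floxed control and 13016 to 34874 in the Cre control. Of 4 neutrophil markers 1, Mpo, fell against the Cre control, with sums of 4858.5 to 20594 in Cre-Idh1, 5104 to 7952 in the floxed control and 5456 to 11025 in the Cre control. Of 4 erythroid markers 0 passed in limma or at an unadjusted p under 0.05 against either control, with sums of 881 to 4357 in Cre-Idh1, 2169.5 to 3454 in the floxed control and 1017 to 5074 in the Cre control. Of 3 adipocyte markers only Fabp4 was among the genes listed in the study, while Adipoq and Plin1 were not. Fabp4 rose in both comparisons, with 188 to 353 normalized counts in Cre-Idh1, 35.1 to 80.1 in the floxed control and 40.4 to 69.5 in the Cre control. The part of these cells in the levels of the 10 genes was not tested.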

How the data were processed

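Messenger RNA libraries from 8 chondrocyte samples were compared. The deposited tables hold, per the file headers, the authors' normalized counts, a signal equal to reads divided by a size factor for each library, beside the authors' log2 fold changes, Wald scores and p-values for each pair of groups. The tools named in the submitters' processing notes are DESeq2, HTSeq, STAR, cutadapt and Trim Galore, and the sources used here give no versions, genome build or counting options. Dividing by the value of 1 read gave whole reads for 100% of values (tolerance 0.001 reads), which were used for edgeR 4.0.16 (quasi-likelihood, TMM) and DESeq2 1.42.0. The deposited tables list only genes with at least 10 reads over the 8 libraries.

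The main test was limma 3.58.1 (R 4.3.3, trend, two-sided) on log2(value + 1), fitted for each pair of groups over all genes that reached a value of 10 in no fewer libraries than the smaller group holds, with Benjamini-Hochberg adjustment over those genes and a threshold of 0.05. A fold change on this scale understates the change of low genes. The procedure was tested on simulated data. Those data held changes in few genes and noise drawn independently for each gene, and no library was made to stand apart. The run therefore does not bear on calls that depend on such a library. The 10 genes, the related lists and the tests were chosen with earlier results of these data known. All 10 genes are named, and of each related list at most the 3 largest changes past the threshold in a comparison, with isoenzymes of the same steps at any value. Some genes of these lists are counted but not reported by name here. Gene symbols come from the deposited tables, and 98.8% of gene IDs matched the reference names. Start regions come from RefSeq (GRCm38.p6), where all 10 genes were found.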

Additional observations from a re-analysis of the deposited data

How the results depend on the processing

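No call past the threshold changed direction under any alternative run. Of the values for single members under the alternatives, 398 kept their sign and side of the threshold, 24 lost the call, 11 gained it and 27 changed sign, all of these uncalled with and without the change. Against the Cre control, Gpi1 had a log2 fold change of -0.055 with embryo sex, and leaving out a library gave -0.039 to 0.22 for Gpi1 and -0.023 to 0.27 for Aldoa. Against the floxed control, leaving out a library gave -0.0445 to 0.055 for Gpi1. Between the floxed and the Cre control, embryo sex gave -0.23 for Hk2, -0.31 for Gpi1, -0.38 for Pfkl, -0.28 for Aldoa and -0.45 for Tpi1. Scaling to the library total gave -0.028 for Gpi1 and -0.042 for Aldoa, and Aldoa had -0.0105 with edgeR and -0.0091 with DESeq2. Leaving out a library there gave -0.25 to 0.14 for Slc2a1, -0.12 to 0.10 for Hk1, -0.054 to 0.21 for Gpi1, -0.030 to 0.37 for Pfkl, -0.18 to 0.17 for Pfkp, -0.12 to 0.17 for Aldoa, -0.32 to 0.21 for Aldoc and -0.11 to 0.40 for Tpi1. Members called ranged from 4 to 6 against the Cre control and from 6 to 7 against the floxed control under other pseudocounts, no filter, other tools, other scalings, all 8 libraries and embryo sex. Against the floxed control, embryo sex in the fit sets aside Cre-Idh1 replicate 1, the only female library there. Leaving out each library gave 2 to 4 members against the Cre control and 1 to 7 against the floxed control, where 1 lone floxed library is assumed to vary like the other group. Genes called in all came to 2849 against the Cre control (1898 with embryo sex; 1168 to 3854 leaving out a library) and 2196 against the floxed control (4063 in the authors' deposited table, 3596 with all 8 libraries, 1434 with embryo sex; 186 to 3752 leaving out a library). Between the floxed and the Cre control 2 genes passed (86 with DESeq2, 36 in the authors' deposited table, 1 with all 8 libraries, 1 with embryo sex; 1 to 102 leaving out a library), and the median of the 10 genes was 0.03 (-0.34 with embryo sex; -0.09 to 0.21 leaving out a library). The cause of these shifts was not tested. No paired analysis was possible because the labels give no replicate numbers that tie samples across groups. Groups of 2 and 3 libraries limit the precision, and low counts limit Slc2a12 further.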
